A study of Mus musculus with 18 samples.

Results

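The interferon-inducible GTPases described here are 10 mouse genes, namely the guanylate-binding proteins Gbp2, Gbp3, Gbp7 and Gbp9 and the immunity-related GTPases Irgm1, Irgm2, Igtp, Iigp1, Ifi47 and Tgtp1. They were chosen by symbol and matched to the gene identifiers of a count table of 55414 genes through the GENCODE annotation. All 10 were found, and all 10 were among the 21772 genes with enough counts to be tested. RNA was sequenced from C2C12 cells, a line of mouse myoblasts that fuse to form myotubes when serum is lowered. At confluence the cells received a pool of siRNAs that targets no gene (siNtc), Mapk6, which encodes Erk3 (siErk3), or Mapkapk5, which encodes Mk5 (siMk5). After 6 days of differentiation, the myotubes of each siRNA were held for 16 h without serum, either with 0.5 mM palmitic acid carried on BSA (PA) or with BSA alone. The 6 groups were therefore siNtc BSA, siErk3 BSA, siMk5 BSA, siNtc PA, siErk3 PA and siMk5 PA, with 3 libraries each and 18 in all. The libraries come from a single cell line, and whether those of a group were separate cultures is not stated in the sources used here, so the p-values measure only the spread between these libraries.

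The total count per library, as assigned read pairs, ran from 13041979 in siNtc BSA replicate 1 to 28496727. Values for single genes are given as CPM, counts scaled to the total of the library, after TMM normalization, and levels of different genes are compared only as CPM per kb of exon. A gene was called changed at an edgeR FDR below 0.05 with a fold change above 1.3 in either direction, where FDR is the Benjamini-Hochberg adjusted p over all 21772 genes from the quasi-likelihood test. Log2 fold changes are given ± SE, and interactions are log2 differences between fold changes. Mapk6, the target of siErk3, was at 135, 129 and 133 CPM in siNtc BSA and at 56.6, 60.4 and 55.2 CPM in siErk3 BSA. In PA it was at 215, 236 and 244 CPM with siNtc and at 131, 119 and 109 CPM with siErk3, and it fell in both media, without overlap between the groups. Mapkapk5, the target of siMk5, had few counts. Its libraries held 27 to 86 counts each, and it was at 2.53, 2.54 and 2.32 CPM in siNtc BSA and 1.18, 2.01 and 1.70 CPM in siMk5 BSA. In PA it was at 2.52, 3.92 and 3.28 CPM with siNtc and 2.43, 2.33 and 2.17 CPM with siMk5, so that the siMk5 libraries were all below those of siNtc in both media. Its log2 fold change with siMk5 was -0.61 ± 0.21 (edgeR FDR 0.469) in BSA and -0.48 ± 0.18 (edgeR FDR 0.469) in PA, and neither value passed the test over all genes. The study states that blots of the proteins showed silencing of both targets, which the counts used here cannot show. From the same blots it reports that Erk3 protein was also lower with siMk5. For Mk5 protein with siErk3 it reports a downward trend that was not significant.

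Guanylate-binding proteins (GBPs) and immunity-related GTPases (IRGs) are related in action to dynamin: they bind membranes, hydrolyse GTP and assemble into coats on vacuoles that hold bacteria or parasites. Their genes are transcribed in response to interferons, and they have been studied mainly in macrophages and fibroblasts. Among the IRGs, the GMS proteins Irgm1, Irgm2 and Igtp sit on the membranes of the cell's own organelles and hold the GKS proteins Iigp1, Ifi47 and Tgtp1 in an inactive state, while active GKS proteins load onto the pathogen's vacuole and disrupt it.

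In the GRCm39 coordinates of the count table, Gbp7 (chr3:142236103-142255910), Gbp3 (chr3:142265787-142278970) and Gbp2 (chr3:142326363-142343769) lay on the plus strand within 108 kb, with Gbp2b between Gbp3 and Gbp2, while Gbp9 (chr5:105225496-105287405) lay on the minus strand of another chromosome. Irgm1 (chr11:48752795-48762510, minus strand), Tgtp1 (chr11:48876154-48884999, minus strand) and Ifi47 (chr11:48967414-48987801, plus strand) lay within 235 kb. Igtp (chr11:58090382-58098417) and Irgm2 (chr11:58090444-58113608) lay farther along the same chromosome on the plus strand and shared 162 exon bases, 8.01% of Igtp and 4.39% of Irgm2. On the same strand, Gbp7 shared 11.3% of its exon bases with Gm43802, Tgtp1 6.96% with Gm12185, Ifi47 4.49% with Or2v1 and Gbp9 1.16% with Gbp8 and Gbp4. Read pairs that overlap exons of several genes on the same strand can be left unassigned in the counting, so pairs from the shared bases of these 6 members may be missing from the counts. The counting also admitted pairs that could map to more than 1 place. Of the 50-base words in the transcripts of Tgtp1, 82.6% also occurred in another gene, most of them in Tgtp2 (77.9%), so the counts of Tgtp1 are uncertain as to their gene of origin. The share was 11.5% for Gbp7, 8.79% for Irgm2 and 7.45% for Igtp, and at most 4.85% for the other members.

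Since all members were called higher with PA in each siRNA, as given further on, the bases before their transcription start sites are described. The RefSeq promoter table, in build GRCm38.p6, held 8 of the 10 members, and each of its promoters spans 250 bases before to 50 bases after the start site. The motifs GAAANNGAA, the core of the interferon-stimulated response element (ISRE), and TTCNNNGAA, the gamma-activated site, were searched on both strands. These members had 9 promoters in the table, as Gbp3 had 2. GAAANNGAA was found in 7 of the 9, from 7 of the 8 members, and in 8.56% of all 32851 promoters of the table. TTCNNNGAA was found in 4 of the 9, those of Gbp7, Irgm2, Igtp and Tgtp1, and in 8.30% of all promoters, and 1.07% of all promoters held both. The letters of either motif do not occur in the promoter of Ifi47 or in the second promoter of Gbp3. The 120 bases before the start site of the 7 members with a match are printed on the gene's strand, with the matched bases in capitals, also where the match is on the opposite strand. They lie at chr3:142620543-142620662 (plus strand) for Gbp2, chr3:142559924-142560043 (plus) for Gbp3, chr3:142530216-142530335 (plus) for Gbp7, chr11:48871421-48871540 (minus) for Irgm1, chr11:58214857-58214976 (plus) for Irgm2, chr11:58199436-58199555 (plus) for Igtp and chr11:48992247-48992366 (minus) for Tgtp1. In Gbp3 and Irgm1 a pair of GAAANNGAA matches overlapped each other. In Irgm2, Igtp and Tgtp1 the gamma-activated site stood 2 bases upstream of the ISRE core, and in Gbp7 the nearest TTCNNNGAA match stood 26 bases upstream. A match is a description of the letters, and binding was not measured.
Gbp2: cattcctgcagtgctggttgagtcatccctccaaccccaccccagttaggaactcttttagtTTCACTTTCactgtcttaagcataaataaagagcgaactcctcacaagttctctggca
Gbp3: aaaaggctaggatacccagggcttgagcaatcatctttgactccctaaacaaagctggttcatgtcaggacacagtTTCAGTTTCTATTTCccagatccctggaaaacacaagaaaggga
Gbp7: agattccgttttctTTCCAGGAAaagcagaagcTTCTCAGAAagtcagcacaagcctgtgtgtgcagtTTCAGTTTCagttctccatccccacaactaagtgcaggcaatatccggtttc
Irgm1: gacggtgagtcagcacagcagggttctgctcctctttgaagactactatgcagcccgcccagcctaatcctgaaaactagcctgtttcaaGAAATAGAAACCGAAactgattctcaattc
Irgm2: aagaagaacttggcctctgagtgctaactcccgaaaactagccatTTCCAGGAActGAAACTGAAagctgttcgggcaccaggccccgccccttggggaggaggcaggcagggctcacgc
Igtp: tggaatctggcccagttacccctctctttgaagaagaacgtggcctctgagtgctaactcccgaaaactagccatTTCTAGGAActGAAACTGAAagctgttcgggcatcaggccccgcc
Tgtp1: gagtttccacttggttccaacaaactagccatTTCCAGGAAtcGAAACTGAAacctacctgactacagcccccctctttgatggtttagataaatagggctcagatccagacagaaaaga

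**Figure D1:**
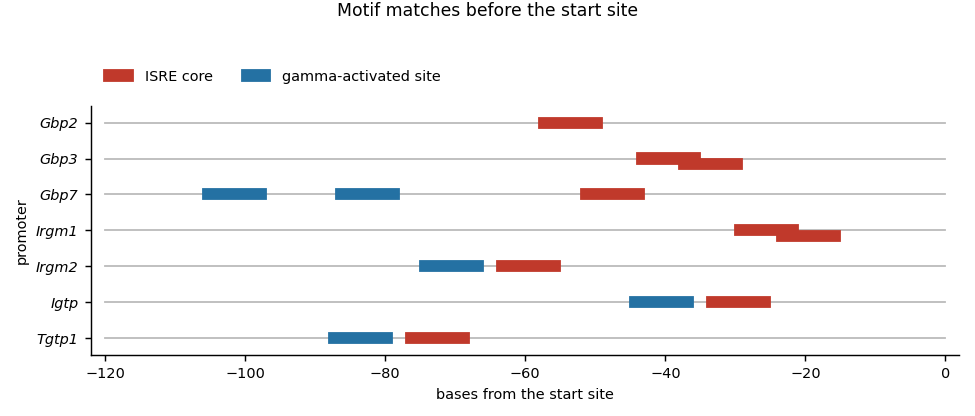
Positions of motif matches in the 120 bases before the start site of 7 members (x axis, bases from the start site). Red boxes are ISRE cores and blue boxes gamma-activated sites, and the 2 kinds stood 2 bases apart in Irgm2, Igtp and Tgtp1.

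In control myotubes without PA (siNtc BSA) the family was expressed at low levels, apart from Irgm1. Per length, Irgm1 was at 6.18 ± 0.398 CPM per kb (SD, n = 3), followed by Igtp at 1.94 ± 0.237, Gbp2 at 1.41 ± 0.131, Irgm2 at 1.17 ± 0.144 and Ifi47 at 0.968 ± 0.111 CPM per kb. Gbp3 was at 0.64 ± 0.157, Gbp7 at 0.492 ± 0.123, Gbp9 at 0.243 ± 0.0131, Iigp1 at 0.194 ± 0.0397 and Tgtp1 at 0.0209 ± 0.0057 CPM per kb. The libraries of Gbp2 and Irgm2, of Irgm2 and Ifi47, and of Gbp3 and Gbp7 overlapped, while all other neighbours in this order were apart. With PA (siNtc PA) the order per length changed: Irgm1 stayed highest at 23.4 ± 1.48 CPM per kb, Igtp (13.04 ± 1.38) and Irgm2 (12.9 ± 1.42) came next and overlapped, and Iigp1 moved from the next to last place to 6.87 ± 1.10 CPM per kb.

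**Figure D2:**
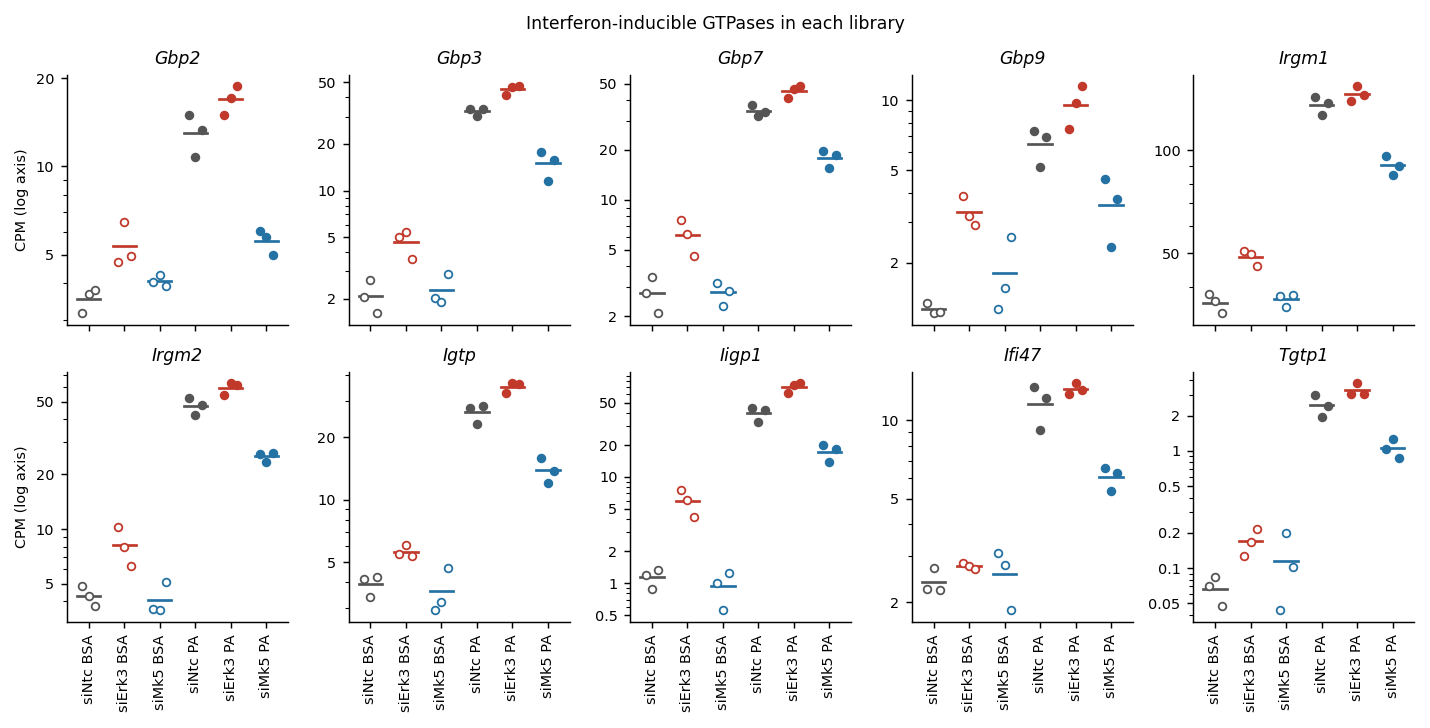
CPM of each member (y axis, log scale, own range for each gene) in the 18 libraries, by group (x axis); points are libraries, open for BSA and filled for PA, and bars are group means. In PA the 3 siMk5 libraries lay below all siNtc and siErk3 libraries for every member, and of all genes tested, 6.09% had all siMk5 PA libraries below those of siNtc PA.

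Gbp2 carries a lipid anchor and coats pathogen vacuoles and bacteria. Its level was 3.16, 3.67 and 3.78 CPM in siNtc BSA, 4.73, 6.45 and 4.94 CPM in siErk3 BSA and 4.05, 4.28 and 3.92 CPM in siMk5 BSA. In PA it was 14.98, 10.8 and 13.3 CPM with siNtc, 14.9, 17.1 and 18.8 CPM with siErk3 and 6.02, 5.73 and 5.00 CPM with siMk5. The siMk5 PA libraries were thus barely above the siMk5 BSA libraries, although without overlap, and all lay below those of siNtc PA. In BSA the siErk3 and the siMk5 libraries of Gbp2 were all above those of siNtc. The log2 fold change of PA against BSA was 1.86 ± 0.14 (edgeR FDR 6.75e-13) in siNtc, 1.66 ± 0.12 (edgeR FDR 2.07e-13) in siErk3 and 0.46 ± 0.15 (edgeR FDR 0.0132) in siMk5. Without siMk5 PA replicate 1 the last value was 0.39 (edgeR FDR 0.0686) and no longer passed. The interaction of siMk5 with PA, the log2 difference between the PA effects in siMk5 and in siNtc, was -1.41 ± 0.21 (edgeR FDR 0.000644). With siMk5 against siNtc, Gbp2 was at 0.19 ± 0.17 (edgeR FDR 0.854) in BSA and -1.22 ± 0.12 (edgeR FDR 2.05e-07) in PA. With siErk3, the groups did not overlap in BSA but Gbp2 narrowly missed the threshold there, at 0.58 ± 0.15 (edgeR FDR 0.0538), and passed at 0.67 (edgeR FDR 0.041) without siErk3 BSA replicate 1.

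Gbp3, which lacks the lipid anchor of Gbp2, was at 2.04, 2.62 and 1.61 CPM in siNtc BSA, 5.03, 5.36 and 3.61 CPM in siErk3 BSA and 2.01, 1.91 and 2.89 CPM in siMk5 BSA. In PA it stood at 33.7, 30.3 and 33.9 CPM with siNtc, 41.3, 46.98 and 47.5 CPM with siErk3 and 17.8, 11.6 and 15.7 CPM with siMk5. The siErk3 libraries were above the siNtc libraries in both media without overlap, and the siMk5 libraries were below them in PA and overlapped with them in BSA. Gbp7, which has been tied to the assembly of the phagocyte oxidase on vacuoles, ranged over 2.08 to 3.46, 4.58 to 7.56 and 2.31 to 3.18 CPM in BSA and over 32.1 to 37.2, 41.3 to 48.6 and 15.6 to 19.8 CPM in PA, in the order siNtc, siErk3 and siMk5, with the same pattern of overlap. With PA in siNtc, Gbp3 rose by a log2 fold change of 3.94 ± 0.16 (edgeR FDR 4.42e-19) and Gbp7 by 3.62 ± 0.14 (edgeR FDR 3.54e-19). Both rose with siErk3 in BSA, Gbp3 by 1.12 ± 0.21 (edgeR FDR 0.00219) and Gbp7 by 1.12 ± 0.18 (edgeR FDR 0.000414). With siMk5 in PA, the log2 fold change was -1.11 ± 0.11 (edgeR FDR 2.05e-07) for Gbp3 and -0.93 ± 0.11 (edgeR FDR 8.2e-07) for Gbp7.

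Gbp9 was the least abundant GBP among the members. Its level was 1.33, 1.21 and 1.23 CPM in siNtc BSA, 3.89, 3.16 and 2.90 CPM in siErk3 BSA and 1.26, 1.56 and 2.58 CPM in siMk5 BSA. With PA it was 7.38, 5.15 and 6.97 CPM in siNtc, 7.53, 9.74 and 11.6 CPM in siErk3 and 4.58, 2.33 and 3.77 CPM in siMk5. Replicate 2 of siMk5 PA was below siMk5 BSA replicate 3, so these groups overlapped, while siErk3 BSA was above siNtc BSA in 3 of 3 libraries. Gbp9 rose with siErk3 in BSA by a log2 fold change of 1.40 ± 0.27 (edgeR FDR 0.00306), and the value in PA, 0.56 ± 0.17 (edgeR FDR 0.142), did not pass. It was at 0.71 (edgeR FDR 0.015) without siErk3 PA replicate 1 and at 0.56 (edgeR FDR 0.000386) with no filter beyond 1 count, and passed in these 2 settings. The interaction of siErk3 with PA was -0.84 ± 0.32 (edgeR FDR 0.666), which did not pass. With siMk5 in PA, Gbp9 had a log2 fold change of -0.86 ± 0.20 (edgeR FDR 0.02). This call was lost without siNtc PA replicate 1, at -0.75 (edgeR FDR 0.155), and without siMk5 PA replicate 2, at -0.63 (edgeR FDR 0.31). It was also lost without siNtc PA replicate 3, at -0.81 (edgeR FDR 0.0874), and without siMk5 PA replicate 3, at -0.90 (edgeR FDR 0.0584). With only the groups compared in the fit it was at -0.86 (edgeR FDR 0.0723) and did not pass.

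Of the regulatory GMS proteins, Irgm1 is found on the Golgi apparatus, mitochondria and lysosomes and is needed for the upkeep of mitochondria and for defence against mycobacteria. Its libraries stood at 38, 36.3 and 33.4 CPM in siNtc BSA, 50.96, 49.6 and 45.9 CPM in siErk3 BSA and 37.6, 34.9 and 37.8 CPM in siMk5 BSA. In PA they stood at 143, 127 and 138 CPM with siNtc, 139.8, 154 and 145 CPM with siErk3 and 96.3, 84.8 and 90.3 CPM with siMk5. The 3 siErk3 libraries were above the siNtc libraries in BSA and mixed with them in PA, whereas the siMk5 libraries were mixed with siNtc in BSA and all lower in PA. Irgm1 rose with siErk3 in BSA by 0.45 ± 0.064 (edgeR FDR 7e-05) on the log2 scale and had 0.11 ± 0.055 (edgeR FDR 0.619) in PA, with an interaction of -0.34 ± 0.085 (edgeR FDR 0.255) that did not pass. With siMk5 it had 0.04 ± 0.067 (edgeR FDR 0.947) in BSA and -0.59 ± 0.057 (edgeR FDR 1.13e-07) in PA, and here the interaction passed, at -0.63 ± 0.087 (edgeR FDR 0.000557). Irgm1 had the smallest log2 fold change of the members in siMk5 PA, the smallest standard error and the most counts.

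Irgm2 acts at the Golgi apparatus and restrains an inflammatory caspase, and Igtp, also called Irgm3, is found on the endoplasmic reticulum and on lipid droplets. Irgm2 was at 4.85, 4.29 and 3.78 CPM in siNtc BSA, 10.3, 7.97 and 6.26 CPM in siErk3 BSA and 3.62, 3.57 and 5.11 CPM in siMk5 BSA. With PA it was at 52.7, 42.3 and 47.7 CPM in siNtc, 54.3, 63.3 and 61.6 CPM in siErk3 and 25.7, 23.4 and 26.2 CPM in siMk5. The siErk3 groups lay above the siNtc groups in both media without overlap. Irgm2 passed with siErk3 in BSA, at 0.93 ± 0.16 (edgeR FDR 0.000855) on the log2 scale. In PA it missed both the FDR and the fold limit, at 0.33 ± 0.091 (edgeR FDR 0.0925), a fold change of 1.256. It passed in PA without siNtc PA replicate 1, at 0.42 (edgeR FDR 0.038), and without siErk3 PA replicate 1, at 0.40 (edgeR FDR 0.0155). The interaction was -0.60 ± 0.19 (edgeR FDR 0.502). Igtp was at 4.14, 3.38 and 4.26 CPM in siNtc BSA, 5.49, 6.03 and 5.33 in siErk3 BSA and 2.92, 3.22 and 4.70 in siMk5 BSA. With PA it was at 27.7, 23.2 and 28.2 CPM in siNtc, 32.8, 36.5 and 35.98 in siErk3 and 15.96, 12.1 and 13.7 in siMk5. The siErk3 libraries were again above siNtc in both media, and those of siMk5 below siNtc in PA. Igtp missed the FDR limit with siErk3 in BSA, at 0.53 ± 0.15 (edgeR FDR 0.105), and passed in PA, at 0.41 ± 0.09 (edgeR FDR 0.0143), with an interaction of -0.12 ± 0.18 (edgeR FDR 0.957). With siMk5 in PA, the log2 fold change was -0.92 ± 0.10 (edgeR FDR 4.09e-07) for Irgm2 and -0.92 ± 0.10 (edgeR FDR 5.01e-07) for Igtp.

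**Figure D3:**
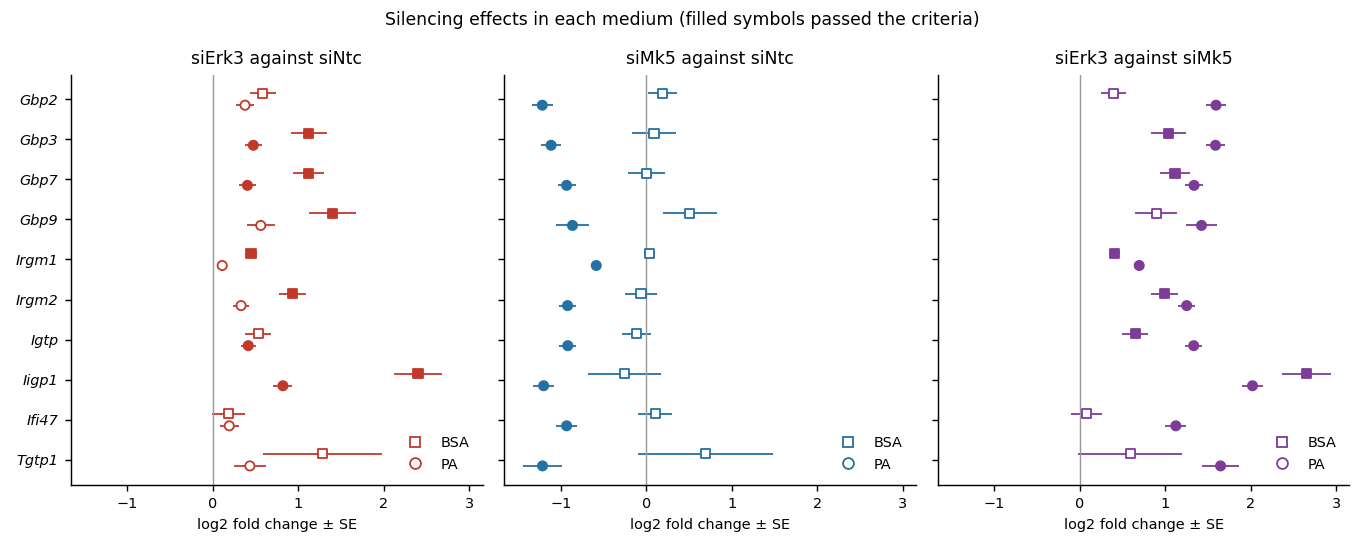
Log2 fold change (x axis) of each member (y axis) between siRNAs, with bars of 1 SE; squares are BSA, circles PA, and filled symbols passed the criteria. In PA all 10 members passed for siMk5 against siNtc, from -0.59 for Irgm1 to -1.22 for Gbp2, and in BSA no member did.

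Iigp1, also called Irga6, is the effector that loads onto the vacuoles of Toxoplasma and Chlamydia, and the gene lies at chr18:60509099-60525706 on the plus strand. It had 17, 21 and 28 counts in the siNtc BSA libraries, or 1.19, 0.875 and 1.32 CPM, against 7.56, 6.12 and 4.22 CPM in siErk3 BSA and 1.00, 0.553 and 1.24 CPM in siMk5 BSA. With PA it reached 44.95, 32.7 and 42.3 CPM in siNtc, 61.8, 73.2 and 76.8 CPM in siErk3 and 20, 13.98 and 18.2 CPM in siMk5. Every siErk3 library was above every siNtc library of its medium, and every siMk5 PA library was below every siNtc PA library. Iigp1 had the largest log2 fold change of the members in each of these comparisons of siErk3 with siNtc, 2.40 ± 0.28 (edgeR FDR 2.2e-06) in BSA and 0.82 ± 0.11 (edgeR FDR 2.56e-05) in PA, and it passed in all leave-one-out fits. With siMk5 it was at -0.25 ± 0.42 (edgeR FDR 0.945) in BSA and -1.20 ± 0.13 (edgeR FDR 3.24e-07) in PA. The interaction of siErk3 with PA was -1.58 ± 0.31 (edgeR FDR 0.0493), just under the FDR limit. It was above the limit with DESeq2's size factors (edgeR FDR 0.0646), with edgeR's filterByExpr (0.154), with Rn18s-rs5 left out of the table (0.0881) and with only the 4 groups compared (0.115). It was also above it without each of these libraries: siNtc BSA replicate 1 (0.23), replicate 2 (0.294) or replicate 3 (0.254), siErk3 BSA replicate 1 (0.211) or replicate 2 (0.143), siNtc PA replicate 1 (0.0865) or replicate 3 (0.0628), and siErk3 PA replicate 2 (0.0821). The log2 value itself stayed between -1.38 and -1.73 in these fits.

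Ifi47, also called Irgd, was the member for which the siErk3 and siNtc libraries overlapped in both media. It stood at 2.25, 2.71 and 2.22 CPM in siNtc BSA, 2.83, 2.74 and 2.68 CPM in siErk3 BSA and 3.096, 2.77 and 1.86 CPM in siMk5 BSA. With PA it stood at 13.4, 9.17 and 12.2 CPM in siNtc, 12.7, 13.9 and 13.1 CPM in siErk3 and 6.56, 5.36 and 6.29 CPM in siMk5. The 3 BSA groups were mixed, while siMk5 PA was below both other PA groups. Its log2 fold change with siErk3 was 0.18 ± 0.19 (edgeR FDR 0.802) in BSA and 0.19 ± 0.11 (edgeR FDR 0.695) in PA, and with siMk5 in PA it was -0.93 ± 0.13 (edgeR FDR 1.65e-05). The interaction of siMk5 with PA, -1.04 ± 0.23 (edgeR FDR 0.0519), was just above the limit. It passed without siNtc PA replicate 2, at -1.17 (edgeR FDR 0.00662), without siMk5 BSA replicate 3, at -1.21 (edgeR FDR 0.02), and without siMk5 PA replicate 1, at -1.09 (edgeR FDR 0.0488).

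Tgtp1, also called Irgb6, binds phospholipids of the vacuole membrane. In BSA it was close to absent, with 1, 2 and 1 counts in siNtc, 3, 4 and 6 in siErk3 and 1, 4 and 2 in siMk5. With PA it was at 3.02, 1.96 and 2.42 CPM in siNtc, 3.07, 3.80 and 3.08 CPM in siErk3 and 1.03, 1.26 and 0.877 CPM in siMk5. Without overlap, siMk5 PA lay below siNtc PA, and siErk3 PA narrowly above it, with the nearest libraries at 3.02 and 3.07 CPM. The log2 fold change with siErk3 in PA, 0.43 ± 0.19 (edgeR FDR 0.498), did not pass. In BSA the siErk3 libraries were above those of siNtc without overlap, but the log2 fold change, 1.29 ± 0.69 (edgeR FDR 0.537), did not pass, and with counts this low it is imprecise. The fold with PA is imprecise as well: the log2 fold change of PA against BSA was 5.08 ± 0.40 (edgeR FDR 3.93e-12) in siNtc and 3.17 ± 0.43 (edgeR FDR 2.01e-07) in siMk5, and the latter became 3.80 (edgeR FDR 7.18e-07) without siMk5 BSA replicate 2. With siMk5 in PA it fell by 1.22 ± 0.23 (edgeR FDR 0.00202). When the counts of Tgtp1 and its near copy Tgtp2 were summed before the fit, the sum had a log2 fold change of 1.53 (edgeR FDR 2.23e-05) with siErk3 in BSA and 0.52 (edgeR FDR 0.00513) in PA, and its interaction of siMk5 with PA was -1.40 (edgeR FDR 0.0142). The log2 fold change of the sum with PA was smaller than that of Tgtp1 alone, at 3.46 (edgeR FDR 2.84e-17) in siNtc, 2.45 (edgeR FDR 6.54e-17) in siErk3 and 2.06 (edgeR FDR 1.25e-11) in siMk5.

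Over the family, PA raised every member in each siRNA. The number higher in PA was 10 of 10 in siNtc, where 15.5% of all genes tested were called higher, 10 of 10 in siErk3 (15.8% of all genes) and 10 of 10 in siMk5 (15.1% of all genes). The median log2 fold change of the members was 3.12 in siNtc, 2.76 in siErk3 and 2.29 in siMk5, and that of all genes was -0.03, -0.01 and -0.01. In siNtc the values ran from 1.86 for Gbp2 to 5.16 for Iigp1, a fold change of 3.64 to 35.8. The others in siNtc were 3.94 ± 0.16 for Gbp3, 3.62 ± 0.14 for Gbp7, 2.38 ± 0.25 for Gbp9, 1.92 ± 0.062 for Irgm1, 3.48 ± 0.13 for Irgm2, 2.76 ± 0.13 for Igtp, 2.26 ± 0.15 for Ifi47 and 5.08 ± 0.40 for Tgtp1. In siErk3 the values were 1.66 ± 0.12 for Gbp2, 3.29 ± 0.13 for Gbp3, 2.91 ± 0.12 for Gbp7, 1.54 ± 0.18 for Gbp9, 1.59 ± 0.058 for Irgm1, 2.88 ± 0.11 for Irgm2, 2.65 ± 0.11 for Igtp, 3.58 ± 0.14 for Iigp1, 2.27 ± 0.14 for Ifi47 and 4.23 ± 0.29 for Tgtp1. In siMk5 they were 0.46 ± 0.15 for Gbp2, 2.74 ± 0.17 for Gbp3, 2.69 ± 0.15 for Gbp7, 1.00 ± 0.25 for Gbp9, 1.298 ± 0.062 for Irgm1, 2.62 ± 0.14 for Irgm2, 1.96 ± 0.14 for Igtp, 4.21 ± 0.24 for Iigp1, 1.22 ± 0.16 for Ifi47 and 3.17 ± 0.43 for Tgtp1, and Gbp2 in siMk5 had the highest edgeR FDR of these comparisons, 0.0132. The summed CPM of the members was 53.8 to 59.8 in siNtc BSA, 80.7 to 98.5 in siErk3 BSA and 55.3 to 63.0 in siMk5 BSA. In PA it was 314 to 378 with siNtc, 409 to 466 with siErk3 and 176 to 214 with siMk5, so that no PA groups overlapped. Irgm1 alone made up 62 to 63.6% of this sum in siNtc BSA, 51.7 to 56.9% in siErk3 BSA and 60 to 64% in siMk5 BSA. Its share in PA was 37.9 to 40.3% with siNtc, 31.4 to 34.1% with siErk3 and 45 to 48.2% with siMk5. The sum is not scaled by gene length. In bulk RNA, fewer expressing cells and less RNA per cell cannot be told apart. The dividing myoblast markers moved with PA as well: 4 of 5 were called lower in siNtc, where 15.1% of all genes were called lower, and Mki67 was the most abundant. Their summed CPM in BSA was 802 to 831 with siNtc, 835 to 870 with siErk3 and 843 to 877 with siMk5, and in PA it was 366 to 436, 328 to 436 and 375 to 393. Acta1, the most abundant of the 8 myotube markers, was not called with PA in siNtc (-0.08 ± 0.052, edgeR FDR 0.256). In siNtc the mean CPM of Mybph was 996 in BSA and 572 in PA, that of Myog 491 and 325, and that of Mymk 402 and 301. Des, at 2012 and 2174 CPM, went the other way. Of the 8 markers, 4 were called lower with PA in siNtc, beside the same 15.1% of all genes. Their summed CPM in BSA was 10200 to 11000 with siNtc, 11300 to 12400 with siErk3 and 10100 to 11000 with siMk5, and in PA it was 9310 to 9450, 10200 to 10800 and 9590 to 10200. The sum was thus above that of siNtc, without overlap, in siErk3 BSA, siErk3 PA and siMk5 PA for the myotube markers, and in siErk3 BSA and siMk5 BSA for the dividing myoblast markers. The part of these shifts in the result was not tested. With siErk3, Myh3 was called higher in BSA (0.39 ± 0.051, edgeR FDR 1.44e-05) among the markers of these lists. In PA it was at 0.38 ± 0.051, a fold change of 1.298 (edgeR FDR 2.38e-05), just under the fold limit, with an interaction of -0.02 ± 0.072 (edgeR FDR 0.999). No marker of these lists was called changed by siMk5 in either medium, by edgeR at the same criteria, although in BSA 2 of the myotube and 1 of the dividing myoblast markers, and in PA 3 of the myotube markers, had an unadjusted p below 0.05.

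**Figure D4:**
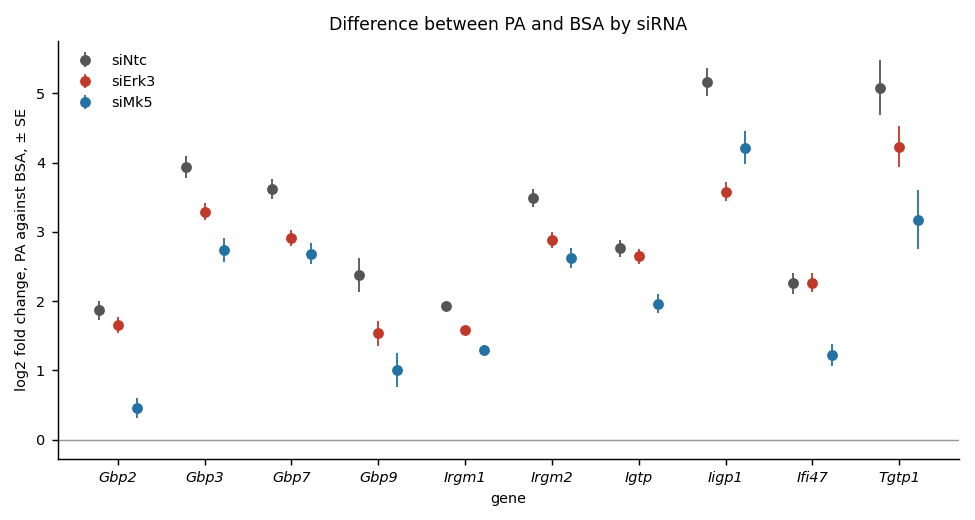
Log2 fold change of PA against BSA (y axis) of each member (x axis) within each siRNA, with bars of 1 SE. All values passed, and for every member the siMk5 value was below the siNtc value.

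The siErk3 libraries in BSA held more of the family. In siErk3 against siNtc in BSA, 6 of 10 members were called higher and 0 lower, where 0.588% of all genes were called higher: Gbp3, Gbp7, Gbp9, Irgm1, Irgm2 and Iigp1. Their median log2 fold change over the 10 was 1.02, against 0.02 for all genes, and all 10 values were positive. All siErk3 libraries were above those of siNtc for 9 of 10 members, as for 11.5% of all genes. Gbp2 and Igtp were added with DESeq2, for 8 of 10, with no filter beyond 1 count and with only the groups compared. In PA, siErk3 against siNtc gave 4 of 10 higher (Gbp3, Gbp7, Igtp and Iigp1) and 0 lower, where 0.432% of all genes were called higher, with a median of 0.41 against -0.00367 for all genes. All siErk3 libraries were above those of siNtc for 7 of 10, as for 6.30% of all genes. This count moved with single libraries: it was 1 without siNtc PA replicate 2 or without siErk3 PA replicate 2, where Iigp1 was the member left, and 7 without siErk3 PA replicate 1. The calls of Gbp3 and Igtp were lost in the first 2 of these fits, with Gbp3 at 0.43 (edgeR FDR 0.121) and 0.44 (edgeR FDR 0.0991), and Igtp at 0.33 (edgeR FDR 0.202) and 0.38 (edgeR FDR 0.119). Gbp7 was lost in these as well, at 0.36 (edgeR FDR 0.239) and 0.38 (edgeR FDR 0.181), and without siNtc PA replicate 3, at 0.40 (edgeR FDR 0.0629), or siErk3 PA replicate 3, at 0.36 (edgeR FDR 0.0626). In other settings, Gbp7 was lost with DESeq2 (DESeq2 FDR 0.0569) and filterByExpr (edgeR FDR 0.0559), and Igtp with only the groups compared (edgeR FDR 0.0581). Gbp2, at 0.38 ± 0.10 (edgeR FDR 0.0942), a fold change of 1.298, missed both the FDR and the fold limit. It passed without siNtc PA replicate 1, at 0.49 (edgeR FDR 0.0272), or siErk3 PA replicate 1, at 0.46 (edgeR FDR 0.0188). The share of counts from Rn18s-rs5, an 18S ribosomal RNA gene, was at most 2.96% in the siErk3 BSA libraries and 2.56, 7.17 and 5.64% in those of siNtc BSA. With that gene left out of the table, the count was again 6 in BSA and 4 in PA.

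With siMk5 the family moved in PA. In siMk5 against siNtc in BSA, 0 of 10 members were called by edgeR in either direction, where 0.0643% of all genes were called. None of the 10 had an unadjusted p below 0.05, DESeq2 called 0 as well, and the log2 fold changes ran from -0.25 ± 0.42 (edgeR FDR 0.945) for Iigp1 to 0.70 ± 0.79 (edgeR FDR 0.893) for Tgtp1, with a median of 0.06 against 0.01 for all genes. The others were 0.19 ± 0.17 for Gbp2, 0.09 ± 0.25 for Gbp3, 0.00 ± 0.22 for Gbp7, 0.51 ± 0.32 for Gbp9, 0.04 ± 0.067 for Irgm1, -0.06 ± 0.19 for Irgm2, -0.12 ± 0.17 for Igtp and 0.10 ± 0.20 for Ifi47. In siMk5 against siNtc in PA, 10 of 10 were called lower, where 0.491% of all genes were called lower, with a median of -0.93 against 0.00192 for all genes. The members thus made up 10 of the 107 genes called lower, and the siMk5 libraries were all below those of siNtc for 10 of 10, as for 6.09% of all genes. As the members were chosen with earlier results of these data known, these shares are a description. The Rn18s-rs5 share was 8.39 to 12.9% in siMk5 BSA, above the other groups, and 1.71 to 6.69% in siMk5 PA against 5.32 to 6.43% in siNtc PA. With the gene left out of the table, the counts were again 0 in BSA and 10 in PA. Within a medium, siErk3 and siMk5 are compared with the same siNtc libraries, so a high or low siNtc library enters both results.

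For every member the mean increase in CPM with PA was smaller in siMk5 than in siNtc. The mean increase of Gbp2 was 9.503 CPM in siNtc and 1.501 CPM in siMk5, or 15.8% of that in siNtc, which was the lowest share among the members. For Irgm1 the increase was 99.98 CPM in siNtc and 53.68 CPM in siMk5, or 53.7%, the highest share, and for the other members the share lay between 33.5% (Gbp9) and 48.6% (Irgm2). With siErk3 the increase was 97.6% (Irgm1) to 166% (Iigp1) of that in siNtc. On the log2 scale, the interaction of siMk5 with PA was called lower for 2 of 10 members, Gbp2 and Irgm1, where 0.161% of all genes were called lower. All 10 values were negative, from -0.63 (Irgm1) to -1.91 (Tgtp1), with a median of -0.99 against -0.02 for all genes. Between them were -0.94 for Gbp7 (edgeR FDR 0.13), -1.37 for Gbp9 (edgeR FDR 0.159), -0.86 for Irgm2 (edgeR FDR 0.107) and -0.95 for Iigp1 (edgeR FDR 0.665), and Tgtp1 had an edgeR FDR of 0.643. DESeq2 called 8 of 10, edgeR with no filter beyond 1 count also 8, and edgeR with only the groups compared 4, adding Gbp3 at -1.20 (edgeR FDR 0.0387) and Irgm2 at -0.86 (edgeR FDR 0.0199). With all groups, edgeR called 5 without siMk5 PA replicate 1, where Gbp3 was at -1.34 (edgeR FDR 0.0121) and Igtp at -0.91 (edgeR FDR 0.0317). With all libraries Gbp3 was at -1.20 ± 0.28 (edgeR FDR 0.0587) and Igtp at -0.80 ± 0.20 (edgeR FDR 0.11). Gbp3 also passed without siNtc BSA replicate 2, at -1.45 (edgeR FDR 0.035), and Igtp without siMk5 BSA replicate 1, at -0.94 (edgeR FDR 0.0399). The interaction of siErk3 with PA was called lower for 1 of 10, Iigp1, where 0.0276% of all genes were called lower, with a median of -0.63 against -0.03 for all genes. Its count was 0 in the fits named above for Iigp1. The values of the other members that had passed with siErk3 in BSA were -0.65 ± 0.24 (edgeR FDR 0.598) for Gbp3 and -0.71 ± 0.21 (edgeR FDR 0.418) for Gbp7, beside those given for Gbp9, Irgm1 and Irgm2, and these 5 did not pass. With no filter beyond 1 count, 3 of them passed, Gbp3 at -0.64 (edgeR FDR 0.0371), Gbp7 at -0.70 (edgeR FDR 0.00238) and Irgm2 at -0.59 (edgeR FDR 0.00374). The other values were -0.21 for Gbp2 (edgeR FDR 0.905), 0.01 for Ifi47 (edgeR FDR 1) and -0.85 for Tgtp1 (edgeR FDR 0.897).

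Set against each other, siErk3 was above siMk5. In siErk3 against siMk5 in BSA, 6 of 10 members were called higher (Gbp3, Gbp7, Irgm1, Irgm2, Igtp and Iigp1), where 0.482% of all genes were called higher. In PA, 10 of 10 were called higher, where 0.854% of all genes were called higher. The median log2 fold change was 0.77 in BSA and 1.38 in PA, against 0.00406 and -0.00291 for all genes. In PA the values were 1.59 ± 0.12 for Gbp2, 1.59 ± 0.11 for Gbp3, 1.34 ± 0.10 for Gbp7, 1.42 ± 0.18 for Gbp9, 0.70 ± 0.056 for Irgm1, 1.25 ± 0.10 for Irgm2, 1.33 ± 0.10 for Igtp, 2.02 ± 0.12 for Iigp1, 1.12 ± 0.12 for Ifi47 and 1.65 ± 0.22 for Tgtp1. In BSA they were 0.39 ± 0.15 for Gbp2, 1.03 ± 0.20 for Gbp3, 1.11 ± 0.18 for Gbp7, 0.89 ± 0.25 for Gbp9, 0.41 ± 0.063 for Irgm1, 0.99 ± 0.16 for Irgm2, 0.65 ± 0.15 for Igtp, 2.65 ± 0.28 for Iigp1, 0.08 ± 0.18 for Ifi47 and 0.59 ± 0.61 for Tgtp1, and Gbp2, Gbp9, Ifi47 and Tgtp1 did not pass. All siErk3 libraries were above those of siMk5 for 8 of 10 members in BSA (not Ifi47 and Tgtp1), as for 8.07% of all genes, and for 10 of 10 in PA, as for 7.46% of all genes. Iigp1 had the largest value in both, 2.65 ± 0.28 (edgeR FDR 7.85e-07) in BSA and 2.02 ± 0.12 (edgeR FDR 8.43e-13) in PA. The BSA call of Igtp, 0.65 ± 0.15 (edgeR FDR 0.0318), was lost without any of siErk3 BSA replicates 1, 2 and 3, at 0.67 (edgeR FDR 0.07), 0.61 (edgeR FDR 0.117) and 0.70 (edgeR FDR 0.0625). It was also lost without siMk5 BSA replicate 1, at 0.50 (edgeR FDR 0.295), or replicate 2, at 0.59 (edgeR FDR 0.188), and with filterByExpr, at 0.64 (edgeR FDR 0.0544). Gbp3 was lost without siMk5 BSA replicate 1, at 0.95 (edgeR FDR 0.0623), or replicate 2, at 0.94 (edgeR FDR 0.069). Gbp9, at 0.89 ± 0.25 (edgeR FDR 0.0971), was gained without siMk5 BSA replicate 3, at 1.23 (edgeR FDR 0.0248), with no filter beyond 1 count, at 0.89 (edgeR FDR 9.99e-05), with only the groups compared, at 0.89 (edgeR FDR 0.0408), and with DESeq2 (DESeq2 FDR 0.0414). Tgtp1 itself passed in no setting in BSA. The summed counts of Tgtp1 and Tgtp2 passed there, at 1.13 (edgeR FDR 0.00057). In PA all 10 passed in every leave-one-out fit.

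Other genes of both families were examined as a list. Of 20 listed, 19 were matched to the table and 17 had enough counts to be tested. Tgtp2 is the near copy of Tgtp1, Gbp2b and Gbp5 are further GBPs with a lipid anchor, and Gvin2 encodes a very large interferon-inducible GTPase. With PA, 13 of the 17 were called higher in siNtc, 12 in siErk3 and 11 in siMk5, with 0 lower, where 15.5, 15.8 and 15.1% of all genes were called higher, led in siNtc by Gvin2 (3.85 ± 0.15, edgeR FDR 9.56e-20) and Tgtp2 (3.28 ± 0.18, edgeR FDR 1.27e-15). Tgtp2 was at 1.33, 1.33 and 1.42 CPM in siNtc BSA and 4.56, 3.63 and 3.72 CPM in siErk3 BSA, apart from each other. With PA it was at 13.4, 11.04 and 15.6 CPM in siNtc, 18.3, 19.4 and 20.2 CPM in siErk3 and 8.13, 5.22 and 7.12 CPM in siMk5, with no overlap between the groups. With siErk3 in BSA, edgeR called 4 higher and 0 lower, where 0.588% of all genes were called higher. The 4 were Tgtp2 (1.53 ± 0.22, edgeR FDR 6.94e-05), Gvin2 (1.09 ± 0.20, edgeR FDR 0.00158), 9930111J21Rik1 (0.48 ± 0.10, edgeR FDR 0.0111) and 9930111J21Rik2 (0.42 ± 0.11, edgeR FDR 0.0449). With siErk3 in PA 2 were higher, where 0.432% of all genes were called higher. The 2 were Tgtp2 (0.53 ± 0.11, edgeR FDR 0.0125) and the IRG gene F830016B08Rik (1.51 ± 0.15, edgeR FDR 1.67e-07). F830016B08Rik was at 3.42, 3.33 and 5.20 CPM in siNtc PA and 12.8, 10.2 and 10.8 CPM in siErk3 PA, without overlap. For the genes that passed in 1 of the media, the interaction of siErk3 with PA was -0.75 for Gvin2 (edgeR FDR 0.418), -0.49 for 9930111J21Rik1 (edgeR FDR 0.407), -0.36 for 9930111J21Rik2 (edgeR FDR 0.675) and 0.69 for F830016B08Rik (edgeR FDR 0.707). In siMk5 PA 4 were called lower, where 0.491% of all genes were called lower. The 4 were Gbp5 (-1.43 ± 0.23, edgeR FDR 0.000217), Gbp2b (-1.11 ± 0.13, edgeR FDR 8.52e-07), Tgtp2 (-0.96 ± 0.13, edgeR FDR 2.14e-05) and Gvin2 (-0.63 ± 0.10, edgeR FDR 0.000125). In siMk5 BSA edgeR called 0 of the 17, where 0.0643% of all genes were called, and 1 of the 17 had an unadjusted p below 0.05. The interaction of siMk5 with PA was called for Gbp2b (-1.30 ± 0.24, edgeR FDR 0.00815) and Tgtp2 (-1.34 ± 0.30, edgeR FDR 0.0471), and it was -1.03 for Gbp5 (edgeR FDR 0.765) and -0.89 for Gvin2 (edgeR FDR 0.208). In siErk3 against siMk5, 2 were higher in BSA and 11 in PA, where 0.482% and 0.854% of all genes were called higher. The median of the list was 0.58 with siErk3 in BSA, 0.53 with siErk3 in PA, 0.19 with siMk5 in BSA and -0.52 with siMk5 in PA. Irgq, a relative with the highest level per length of the list, had log2 fold changes of 0.05 with siErk3 in BSA, 0.09 with siMk5 in PA and -0.23 with PA in siNtc, none of which passed.

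Upstream of the family, the interferon genes themselves were close to absent. Ifnb1, a type I interferon, had 0 counts in all BSA libraries, 1, 2 and 4 counts in siNtc PA, 5, 7 and 5 in siErk3 PA and 1, 1 and 2 in siMk5 PA. Ifng, the type II interferon, had 7 counts over the 18 libraries. Of the 30 genes listed for interferon signalling, 22 were tested. With PA in siNtc 13 of the 22 were called higher and 1 lower, where 15.5% of all genes were higher and 15.1% lower, with Stat2 (2.32 ± 0.072, edgeR FDR 6.2e-22), Usp18 (5.82 ± 0.20, edgeR FDR 7.28e-21) and Irf7 (4.01 ± 0.18, edgeR FDR 6.32e-18) at the smallest FDR. With siErk3 in BSA 4 were called higher and 0 lower, where 0.588% of all genes were called higher. The 4 were Usp18, a feedback inhibitor of the type I receptor (2.31 ± 0.30, edgeR FDR 1.44e-05), the transcription factors Irf7 (1.52 ± 0.23, edgeR FDR 0.000125) and Irf9 (0.59 ± 0.11, edgeR FDR 0.00219), and Stat2 (0.46 ± 0.075, edgeR FDR 0.000432), the partner of Irf9. With siErk3 in PA 2 were higher, where 0.432% of all genes were called higher. The 2 were Nlrc5, the activator of MHC class I genes (0.93 ± 0.11, edgeR FDR 6.75e-06), and Usp18 (0.41 ± 0.10, edgeR FDR 0.045). The interaction of siErk3 with PA was called lower for Usp18 (-1.90 ± 0.32, edgeR FDR 0.0407), and it was -1.11 for Irf7 (edgeR FDR 0.167), -0.41 for Irf9 (edgeR FDR 0.557), -0.32 for Stat2 (edgeR FDR 0.477) and 0.13 for Nlrc5 (edgeR FDR 0.982). In siMk5 PA 5 were called lower and 0 higher, where 0.491% of all genes were called lower. Among the 5 were Usp18 (-1.06 ± 0.11, edgeR FDR 3.72e-07), Irf7 (-0.93 ± 0.12, edgeR FDR 1.31e-05), Stat2 (-0.58 ± 0.065, edgeR FDR 7.94e-07) and Irf9 (-0.40 ± 0.086, edgeR FDR 0.0121). The interaction of siMk5 with PA was called lower for 2 of the 22, where 0.161% of all genes were called lower. Stat2 was among the 2 (-0.61 ± 0.10, edgeR FDR 0.00314), and the interaction was -1.09 for Usp18 (edgeR FDR 0.6), -1.05 for Irf7 (edgeR FDR 0.271) and -0.37 for Irf9 (edgeR FDR 0.56). In siMk5 BSA edgeR called 0 of the 22, where 0.0643% of all genes were called, and 0 of the 22 had an unadjusted p below 0.05. The list's median was 0.06 with siErk3 in BSA and -0.17 with siMk5 in PA. Jak1, Stat3 and Socs3 had the highest levels per length in siNtc BSA, and their log2 fold changes, none of which passed, were 0.06, 0.02 and -0.06 with siErk3 in BSA and -0.07, -0.07 and -0.02 with siMk5 in PA.

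Genes that work with GBPs and IRGs at vacuoles were examined as further lists. Of 11 genes of inflammasomes and vacuole ubiquitylation, Rnf213, a large ubiquitin ligase that coats vacuoles, was called higher with siErk3 in BSA (0.44 ± 0.08, edgeR FDR 0.00143) and was at 0.15 in PA, with an interaction of -0.30 ± 0.11 (edgeR FDR 0.6). With siMk5 in PA, 0.491% of all genes were called lower and 0.0551% higher. Of the 11 there, Rnf213 (-0.73 ± 0.074, edgeR FDR 2.05e-07) and the antibody-binding ligase Trim21 (-0.53 ± 0.11, edgeR FDR 0.012) were lower and the cytokine gene Il1b (0.74 ± 0.13, edgeR FDR 0.00134) was higher. Their interactions of siMk5 with PA were -0.77 for Rnf213 (edgeR FDR 0.000557), -0.51 for Trim21 (edgeR FDR 0.6) and 0.42 for Il1b (edgeR FDR 0.708), and that of Rnf213 passed. In siMk5 BSA edgeR called 0 of the 11, and 0 had an unadjusted p below 0.05. The list's median was 0.07 with siErk3 in BSA and -0.14 with siMk5 in PA. With PA in siNtc, Rnf213 (3.15 ± 0.082, edgeR FDR 8.95e-24), Casp4 (2.57 ± 0.098, edgeR FDR 9.41e-20), Trim21, Il1b, Aim2 and Traf6 were called higher. Il18 was called lower (-0.83 ± 0.16, edgeR FDR 7.6e-05), where 15.5% of all genes were higher and 15.1% lower. Casp4 was at -0.14 ± 0.074 (edgeR FDR 0.778) with siMk5 in PA and did not pass. Of 18 genes of Atg8 conjugation and cargo receptors, which guide GTPases to membranes, edgeR called 0 in each comparison with siNtc of the same medium. In these comparisons 0.0643% to 0.785% of all genes were called. Of these 18, 1 had an unadjusted p below 0.05 with siErk3 in BSA, 1 with siErk3 in PA, 0 with siMk5 in BSA and 0 with siMk5 in PA. In siNtc, 4 of the 18 were higher in PA and 0 lower, where 15.5% of all genes were higher and 15.1% lower: Sqstm1 (2.42 ± 0.073, edgeR FDR 2.63e-22), Gabarapl1 (0.77 ± 0.066, edgeR FDR 2.96e-11), Optn (0.78 ± 0.07, edgeR FDR 6.2e-11) and Atg16l1 (0.42 ± 0.062, edgeR FDR 9.86e-07). Of 14 other large GTPases (dynamins, mitofusins, Opa1, atlastins and Ehd proteins), edgeR called 0 with siErk3 or siMk5 against siNtc. Of these, 2 had an unadjusted p below 0.05 with siErk3 in BSA, 2 with siErk3 in PA, 0 with siMk5 in BSA and 0 with siMk5 in PA. With PA in siNtc, 1 was higher, Ehd1 (0.42 ± 0.056, edgeR FDR 2.41e-07), and 6 were lower, with Ehd2 (-0.69 ± 0.061, edgeR FDR 5.18e-11) and Dnm1 (-0.74 ± 0.07, edgeR FDR 1.85e-10) at the smallest FDR and a median of -0.12, where 15.5% of all genes were higher and 15.1% lower.

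**Figure D5:**
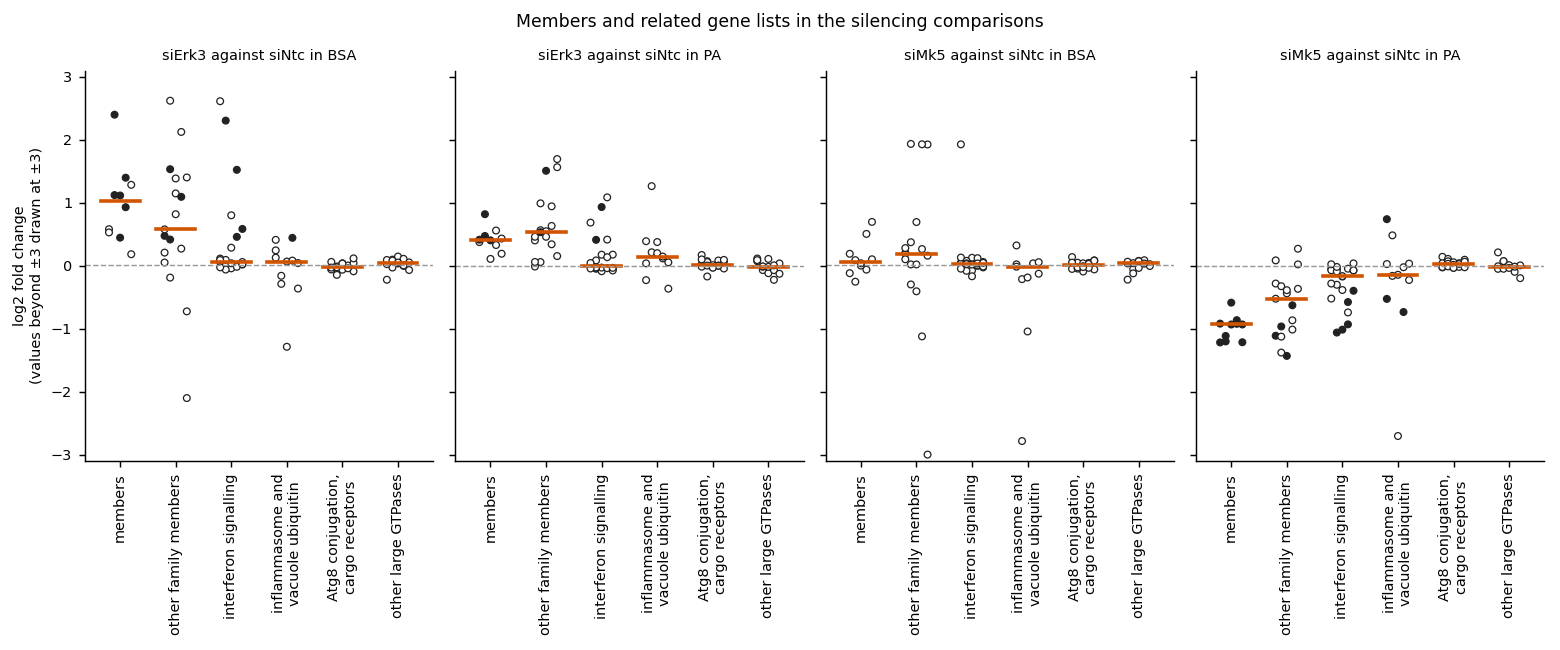
Log2 fold changes (y axis) of the genes tested in the members and in 5 related lists (x axis) for siErk3 and siMk5 against siNtc in each medium. Points are genes, filled where called; orange bars are list medians and the dashed line is the median of all genes, and points far from 0 in the unfilled lists are genes with few counts.

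Among 12713 genes outside both families with at least 1 CPM on average, the 8 whose profile over the 18 libraries was closest to the median profile of the members were Apol9a, Rnf213, Parp14, Ifi203, Dhx58, Mndal, Rtp4 and Herc6. The root mean square difference in centred log2 CPM was 0.216 for Apol9a and 0.259 for Herc6, against a median of 1.41 for the genes compared, and it was 0.201 for Igtp and 1.09 for Iigp1 among the members themselves. Markers of other cells were scarce. The 7 macrophage markers summed to 7.25 to 9.45 CPM over the libraries, mostly from Cd14, while Ptprc had 2 counts in all and Adgre1 had 0. The 4 endothelial markers summed to at most 1.39 CPM, the 5 T and NK cell markers to at most 0.126 CPM with Cd8a and Nkg7 at 0, and the 3 adipocyte markers to at most 0.14 CPM with Plin1 at 0. Some of these scarce markers were called with PA. Csf1r was lower in siNtc (-1.50, edgeR FDR 0.0234) and siErk3 (-1.78, edgeR FDR 0.0181), and Cd68 was higher in siMk5 (0.66, edgeR FDR 0.0305). Kdr, with 0 counts in BSA and at most 7 in a PA library, was called higher in siErk3 and siMk5.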

How the data were processed

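The counts deposited by the authors are, per the file headers, read pairs per gene from featureCounts 2.0.0 on the Ensembl 105 annotation of GRCm39 (strand setting 2, primary alignments, minimum mapping quality 3). They are not normalized and were used as such. All columns of the table belong to the 18 libraries (columns of other samples: 0), and a deposited table of log2 values was not used. Symbols came from GENCODE M39. The listed family gene Gm4951 was not matched. Genes were tested where the 18 libraries together held 10 counts or more. A quasi-likelihood fit in edgeR 4.0.16 (R 4.3.3, TMM, a coefficient for each of the 6 groups) gave all comparisons and interactions. Standard errors are |log2 fold change| divided by the square root of F. The code was tried on simulated data before use. Tables and figures were made with Python 3.11.15, numpy 2.4.6, pandas 2.3.3 and matplotlib 3.10.9.

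The rule for named genes, written down before the counts were opened, was this: all 10 members in every comparison, the siRNA targets, Rn18s-rs5, of each list up to 6 called genes with the smallest FDR and up to 3 that did not pass with the highest level per length, and the 8 genes closest to the median profile of the members. Not every gene that this rule takes is named in the text. The lists hold other genes of both families, interferons with their receptors and signalling factors, Atg8 conjugation with cargo receptors, inflammasome and vacuole ubiquitin effectors, other large GTPases, and markers of cell types. They were written from general knowledge, and members and lists were chosen with earlier results of these data known. The alternatives were DESeq2 1.42.0, its size factors in the edgeR fit, filterByExpr, no filter beyond 1 count, Rn18s-rs5 left out, the replicate number as a block, only the groups compared, the FDR limit alone, Tgtp1 and Tgtp2 summed, and fits with 1 library left out.

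The results are limited to mRNA of 1 cell line at 1 time, with 3 libraries per group. Proteins were not examined here, and the fall of Mapkapk5 mRNA did not pass the test. Genes with few counts, such as Tgtp1 in BSA, are the least precise.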

Additional observations from a re-analysis of the deposited data

Results flagged for a closer look

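The difference in the effect of PA between siRNAs was tested by the interaction terms of the edgeR fit, and 3 values of members passed. The log2 value of Iigp1 in the interaction of siErk3 with PA was -1.58, with a PA effect of 3.58 in siErk3 and 5.16 in siNtc. In CPM the direction turned, as the mean increase of Iigp1 with PA was 64.62 CPM in siErk3 and 38.88 CPM in siNtc. In the interaction of siMk5 with PA, Gbp2 had -1.41, with a PA effect of 0.46 in siMk5 and 1.86 in siNtc. In the same interaction Irgm1 had -0.63. What these differences come from was not tested.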

How the results depend on the processing

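Leaving out each library in turn gave 6 to 7 members for siErk3 against siNtc in BSA, 1 to 7 in PA, 0 for siMk5 against siNtc in BSA, 9 to 10 in PA, 4 to 7 for siErk3 against siMk5 in BSA, 10 in PA, 10 for PA against BSA in siNtc and in siErk3, and 9 to 10 in siMk5. The other settings gave 6 to 8, 3 to 5, 0, 9 to 10, 5 to 7, and 10 for the last 4, in the same order. The interaction of siErk3 with PA gave 0 to 1 and that of siMk5 with PA 2 to 5. Both interaction counts also moved with other settings. That of siErk3 with PA was 0 with DESeq2's size factors, filterByExpr, Rn18s-rs5 left out or only the groups compared, and 4 with no filter beyond 1 count (Iigp1, Gbp3, Gbp7 and Irgm2). That of siMk5 with PA was 8 with no filter beyond 1 count, 4 with only the groups compared and 8 with DESeq2. The cause was not tested.

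Values close to 0 changed sign. In siMk5 against siNtc in BSA, Gbp7, at 0.00266, was -0.0046 with DESeq2's size factors, -0.0061 with filterByExpr, -0.014 with no filter beyond 1 count, -0.011 with Rn18s-rs5 left out, -0.017 with only the groups compared and -0.0029 with DESeq2, and the cause was not tested. Without single libraries its range was -0.20 to 0.25. In the same comparison the ranges without single libraries were -0.11 to 0.34 for Gbp3, -0.022 to 0.070 for Irgm1, -0.24 to 0.027 for Irgm2, -0.34 to 0.025 for Igtp and -0.063 to 0.28 for Ifi47. For Ifi47 the range was -0.097 to 0.25 in siErk3 against siMk5 in BSA and -0.13 to 0.13 in the interaction of siErk3 with PA.

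With the replicate number as a block (replicate block), the counts in the order given were 6, 4, 0, 10, 6, 10, 10, 10, 10, 1 and 2, so no count moved, and Gbp7 in siMk5 BSA was at -0.011. Libraries of the same number did not deviate together in most pairs. Over 45 pairs, r ran from -0.418 to 0.304 with a mean of -0.01, and the same number correlated best in 15 of them. In 4 pairs r was over 0.1, and it was highest between siErk3 PA and siMk5 PA, at 0.304 for replicate 1 and 0.261 for replicate 3. Over all member values and alternatives, 1565 kept their direction and side of the threshold, 45 passed in addition, 37 no longer passed and 24 changed sign. Depth limits Tgtp1 in BSA most, at 1 to 6 counts per library.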
